A study of Mus musculus with 12 samples.

Results

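The heat shock genes described here were 10 of the 16821 genes listed for mouse liver, taken by their symbols: the transcription factor Hsf1, 7 chaperones and cochaperones of the cytosol (Hspa1a, Hspa1b, Hspa8, Hsph1, Hsp90aa1, Dnajb1 and Hspb1) and 2 of the mitochondrial matrix (Hspd1 and Hspe1). The 12 libraries came from livers of adult C57BL/6J males, 1 library for each animal, with 6 mice in the sedentary control (Con) group and 6 in the chronic exercise (Exe) group, all bought at 8 weeks of age and given 1 week to adapt. Training of the Exe mice was moderate treadmill running over 6 weeks, on 5 days a week and 60 min a day, while the Con mice stayed in the room and did not run. The saline-flushed livers of both groups were collected no later than 24 h after the final run, and the study used principal component analysis to leave out outliers. Values are FPKM, fragments divided by transcript length in kilobases and by the library's mapped fragments, so levels can be set side by side between genes. The files list the members by NCBI gene ID: Hsf1 as 15499, Hspa1a as 193740, Hspa1b as 15511, Hspa8 as 15481, Hsph1 as 15505, Hsp90aa1 as 15519, Dnajb1 as 81489, Hspb1 as 15507, Hspd1 as 15510 and Hspe1 as 15528.

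Heat shock proteins bind unfolded or newly made proteins and help them to fold. When unfolded proteins build up, HSF1 is released from the chaperones that hold it, binds inverted repeats of the letters GAA in promoters and switches on the inducible genes, whose mRNA falls back once enough chaperone has been made. HSPA1A and HSPA1B are the inducible HSP70 proteins, and HSPA8 is the form that cells make at all times. In liver these genes are known to follow body temperature and feeding time. In samples of whole tissue, fewer cells of a type and less RNA per cell cannot be told apart.

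The upstream sequences of members are shown first, searched for the letters that HSF1 is known to bind. RefSeq promoter windows (build GRCm38.p6) were matched to 7 of the 10 genes: Hspa1a, Hspa1b, Hsph1, Dnajb1, Hspb1, Hspd1 and Hspe1. No window was available for Hsf1, Hspa8 and Hsp90aa1, which are named only. The 250 bases before each annotated start were searched for a pair of heat shock units that face each other, GAANNTTC or TTCNNGAA. Each of these reads the same on both strands, and neighbouring matches can share a unit. A match was found for 6 of the 7 genes, or in 7 of their 10 windows since some genes have 2 starts, and 12.8% of all 32851 windows of this length hold one. The match of Hspd1 and that of Hspe1 are the same stretch. Both windows of Hsph1 hold the same match, and another window of Hspd1 holds none, so the windows with a match are not independent. Dnajb1 had none, which says only that these letters are not in its windows. For the genes with a match, whole windows are given where they lie outside annotated transcripts, 5′ to 3′, with the matched letters in capitals.
Hspa1a (chr17:34972157-34972406, minus strand): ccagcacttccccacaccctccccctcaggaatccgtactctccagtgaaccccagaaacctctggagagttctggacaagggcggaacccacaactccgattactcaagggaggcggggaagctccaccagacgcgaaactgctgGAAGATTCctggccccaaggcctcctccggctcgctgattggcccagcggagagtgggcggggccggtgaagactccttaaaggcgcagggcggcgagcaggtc
Hspa1b (chr17:34959239-34959488, minus strand): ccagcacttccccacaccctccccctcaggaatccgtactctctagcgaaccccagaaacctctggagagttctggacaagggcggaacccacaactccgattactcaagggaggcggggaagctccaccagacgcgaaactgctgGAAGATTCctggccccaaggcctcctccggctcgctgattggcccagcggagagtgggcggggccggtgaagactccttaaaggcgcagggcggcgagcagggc
Hspb1 (chr5:135887669-135887918, plus strand): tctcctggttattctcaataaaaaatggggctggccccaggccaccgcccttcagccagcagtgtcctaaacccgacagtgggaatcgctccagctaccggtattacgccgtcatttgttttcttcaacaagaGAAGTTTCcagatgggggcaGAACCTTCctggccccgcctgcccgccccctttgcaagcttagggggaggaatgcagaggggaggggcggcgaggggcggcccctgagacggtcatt

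The windows of Hspa1a and Hspa1b differed at 3 of 250 bases, none of them in the match, which began at position -104 relative to either start. Hspb1 held 2 matches, which began at positions -117 and -97. The windows of Hsph1, Hspe1 and Hspd1 run into annotated gene spans, so only 30 bases around their matches are given.
Hsph1 (chr5:149636351-149636380, minus strand): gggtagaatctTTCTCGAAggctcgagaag
Hspe1 (chr1:55088053-55088082, plus strand): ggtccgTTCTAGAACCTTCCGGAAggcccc
Hspd1 (chr1:55088053-55088082, minus strand): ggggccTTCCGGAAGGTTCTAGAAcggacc

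Hspd1 and Hspe1 are neighbours read in opposite directions, and the same stretch stood before a start of each gene. It holds 3 overlapping matches and a run of alternating units, GAANNTTCNNGAA or TTCNNGAANNTTC, which is found in 0.466% of all windows. A match is a description of letters, and binding of HSF1 was not measured.

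Hspa8, the constitutive HSP70, had the highest level, from 333.4 to 605.2 FPKM over the 12 mice, and its lowest mouse lay above every value of any other member. By its mean FPKM it lay above 98.8% of the genes listed. Hspd1 and Hspe1, the barrel and the lid of the mitochondrial folding chamber, came next with 171.0 to 241.2 and 136.0 to 223.5 FPKM, and these ranges overlapped. Hsp90aa1, the inducible HSP90 of the cytosol, ranged from 39.4 to 91.6 FPKM and did not overlap with Hspb1, a small heat shock protein that holds unfolded chains, at 13.7 to 35.0 FPKM. Hsph1, Dnajb1, Hsf1 and Hspa1b overlapped one another, and Hspa1a had the lowest mean. Together the 10 genes made up between 0.0947% and 0.153% of the summed FPKM of a mouse.

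Several of these genes have near-identical copies, and how the authors' counting treated reads that fit more than 1 gene is not given in the sources used here. Of all stretches of 100 bases in the longest GENCODE transcript, 48.6% of those of Hspa1a and 49.9% of those of Hspa1b also stood in another gene, mostly in each other. The share was 62.8% for Hspa8, 47.5% for Hsp90aa1, 42.7% for Hspb1, 26.9% for Hspd1 and 20.4% for Hspe1. It was 0 for Hsf1, Hsph1 and Dnajb1. The levels of the copied genes are therefore uncertain to an extent that was not tested.

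Whether these genes differed in level after 6 weeks of running, within 24 h of the final run, was asked by comparing Exe with Con mice. None of the members passed the test. With limma on log2(FPKM + 1) and Benjamini-Hochberg adjustment, 0 of the 9 members tested had an adjusted p under 0.05, where the background over all 10241 genes tested was 0%, and 0 of 9 had an unadjusted p under 0.05, where the background was 6.21%. For 0 of the 9 members were the groups free of overlap (background 0.254%). The median log2 fold change of the 9 members was 0.01, with 6 of 9 higher in Exe mice, and that of all genes tested was 0.02, with 57.5% higher. Hspa1a fell below the filter on low values, which asked for 1 FPKM in 6 or more mice. The background of 0% belongs to this fit on FPKM. With DESeq, a test on counts, and a limit on the fold change, the study did report genes that differed between the groups.

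Hsf1, the regulator, had 6.57, 7.93 and 8.98 FPKM in the lowest, median and highest Con mouse and 6.85, 7.73 and 9.33 FPKM in Exe mice. The groups overlapped almost fully, and only Exe 2 lay above every Con mouse. The means were 7.92 ± 0.885 (SD, n = 6) and 7.98 ± 0.922 FPKM, with a log2 fold change of 0.01 (95% interval -0.17 to 0.19, limma adjusted p = 0.994).

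Hspa1a and Hspa1b, the inducible HSP70 genes, were low in most mice and high in few. Hspa1a had 0.21, 0.605 and 6.80 FPKM in the lowest, median and highest Con mouse, and 0.17, 0.295 and 1.85 FPKM in Exe mice. Hspa1b had 2.95, 4.65 and 45.5 FPKM in Con mice, and 1.35, 3.80 and 14.1 FPKM in Exe mice. Both genes were highest in Con 2 and, within the Exe group, in Exe 4, and the groups overlapped. The log2 fold change of Hspa1b was -0.66 (95% interval -1.87 to 0.54, limma adjusted p = 0.929), and it was -0.16 without Con 2, -0.98 without Exe 4 and -0.47 without both (limma adjusted p = 0.813 for the last). For Hspa1a, taken from the fit with no filter, it was -0.44 (95% interval -1.32 to 0.44, limma adjusted p = 0.956). Since these copies share stretches of 100 bases, their FPKM were also summed. The sum was 13.3 ± 19.2 FPKM in Con mice and 5.64 ± 5.20 in Exe mice (SD, n = 6). Its log2 fold change was -0.69 (exact permutation p = 0.355, two-sided).

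Hspa8 had 347.4, 499.99 and 605.2 FPKM in the lowest, median and highest Con mouse and 333.4, 414.4 and 586.2 FPKM in Exe mice. Exe 3, Exe 5 and Exe 6 lay just below the lowest Con mouse, and the other Exe mice lay within the Con range. Its log2 fold change was -0.21 (95% interval -0.58 to 0.16, limma adjusted p = 0.929), from -0.31 without Con 4 to -0.13 without Exe 5. Dnajb1, an HSP40 that hands proteins to HSP70, had 6.40, 7.21 and 14.9 FPKM in Con mice and 4.90, 6.96 and 12.1 FPKM in Exe mice. It was highest in the same mice as the inducible HSP70 genes, Con 2 and Exe 4, with a log2 fold change of -0.18 (95% interval -0.63 to 0.26, limma adjusted p = 0.937). Without Con 2 it was -0.028 and without Exe 4 -0.32.

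Hsph1, an HSP110 that exchanges the nucleotide of HSP70, had 5.63, 9.29 and 19.8 FPKM in the lowest, median and highest Con mouse and 5.49, 11.8 and 15.2 FPKM in Exe mice. Its values spread widely within both groups, and only Exe 3 lay outside the Con range. The log2 fold change of Hsph1 was 0.01 (95% interval -0.62 to 0.65, limma adjusted p = 0.998), and its sign turned with the scaling between mice. Hsp90aa1 had 39.4, 46.8 and 88.2 FPKM in Con mice and 42.5, 53.7 and 91.6 FPKM in Exe mice. Exe 1 and Exe 6 were above every Con mouse, and Con 2 was close to them. Its log2 fold change was 0.21 (95% interval -0.28 to 0.70, limma adjusted p = 0.937), and it was 0.087 without Exe 1, 0.089 without Exe 6 and 0.36 without Con 2. Hspb1 had 14.3, 16.3 and 29.3 FPKM in Con mice and 13.7, 18.5 and 35.0 FPKM in Exe mice, highest in Exe 6. Its log2 fold change was 0.12 (95% interval -0.38 to 0.61, limma adjusted p = 0.962), and without Exe 6 it was -0.034.

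Hspd1 and Hspe1 had the members' smallest unadjusted p-values in the limma fit on FPKM without further normalization. With quantile normalization, Hspa8 had the smallest (limma unadjusted p = 0.135), against 0.229 for Hspd1 and 0.280 for Hspe1. With median-ratio size factors, Hspd1 had the smallest (limma unadjusted p = 0.141), followed by Hspa8 (0.236). Hspd1 had 171.0, 189.4 and 197.4 FPKM in the lowest, median and highest Con mouse and 173.6, 207.5 and 241.2 FPKM in Exe mice. Exe 1, Exe 2, Exe 4 and Exe 6 were above every Con mouse, while Exe 3 and Exe 5 lay within the Con range. The means were 186.3 ± 9.55 and 206.0 ± 24.5 FPKM (SD, n = 6), with a log2 fold change of 0.14 (95% interval -0.03 to 0.30, limma unadjusted p = 0.0909, adjusted p = 0.849; exact permutation p = 0.104, two-sided). Hspe1 had 139.6, 171.3 and 182.5 FPKM in Con mice and 136.0, 185.9 and 223.5 FPKM in Exe mice. Exe 1, Exe 2 and Exe 6 exceeded the whole Con group and Exe 5 was below all of it, with a log2 fold change of 0.16 (95% interval -0.09 to 0.41, limma adjusted p = 0.914). Without Exe 5, the log2 fold change was 0.19 for Hspd1 (limma unadjusted p = 0.0186, adjusted p = 0.532) and 0.25 for Hspe1 (unadjusted p = 0.0270, adjusted p = 0.535), and in that fit 905 genes in all had an unadjusted p under 0.05.

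**Figure D1:**
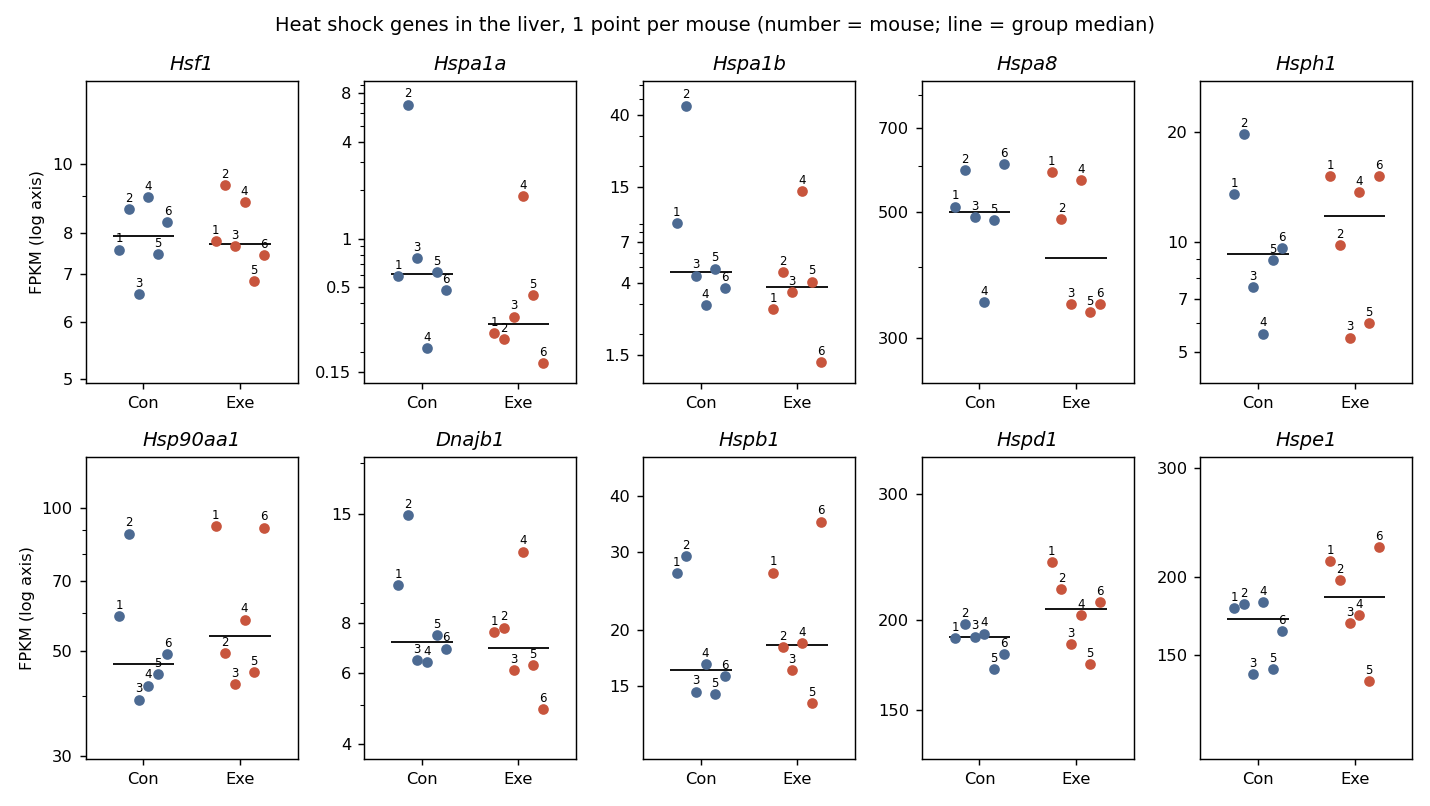
FPKM of the 10 heat shock genes by mouse, on a log axis for each gene; points are mice (Con and Exe, n = 6 each) and lines are group medians. The groups overlap for every gene, and Con 2 and Exe 4 stand above their groups for Hspa1a and Hspa1b.

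**Figure D2:**
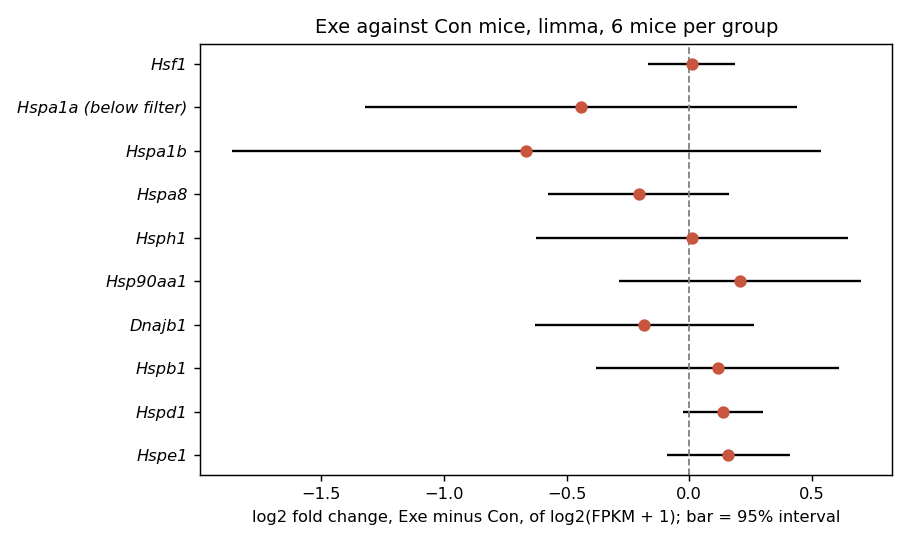
Exe minus Con log2 fold change of each heat shock gene on the log2(FPKM + 1) scale, with its 95% interval from limma. Every interval includes 0, from the widest for Hspa1b (-1.87 to 0.54) to the narrow ones of Hsf1 and Hspd1.

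Most of the cytosolic members spread widely between mice of the same group. The SD of log2(FPKM + 1) within groups was 1.12 for Hspa1b, 0.591 for Hsph1, 0.458 for Hspb1, 0.456 for Hsp90aa1, 0.411 for Dnajb1 and 0.338 for Hspa8, where the median over all genes tested was 0.140. Hspa1b spread more than 99.6% of the 500 genes nearest to it in mean level, Hsph1 more than 98.4%, Hspb1 more than 97.8%, Dnajb1 more than 97.4%, Hsp90aa1 more than 96.4% and Hspa8 more than 91.8%. Hspe1 had an SD of 0.222 (above 82.0% of genes of like level), and Hsf1 and Hspd1 lay near the middle with 0.146 (53.4%) and 0.132 (49.4%). The cytosolic chaperones thus stood high in the order of spread, and Hsf1 and the mitochondrial barrel stood near its middle. These percentiles are descriptions over genes with no test. The highest mouse was 40.0-fold the lowest for Hspa1a, 33.7-fold for Hspa1b, 3.60-fold for Hsph1 and 3.03-fold for Dnajb1, but 1.42-fold for Hsf1 and 1.41-fold for Hspd1.

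**Figure D3:**
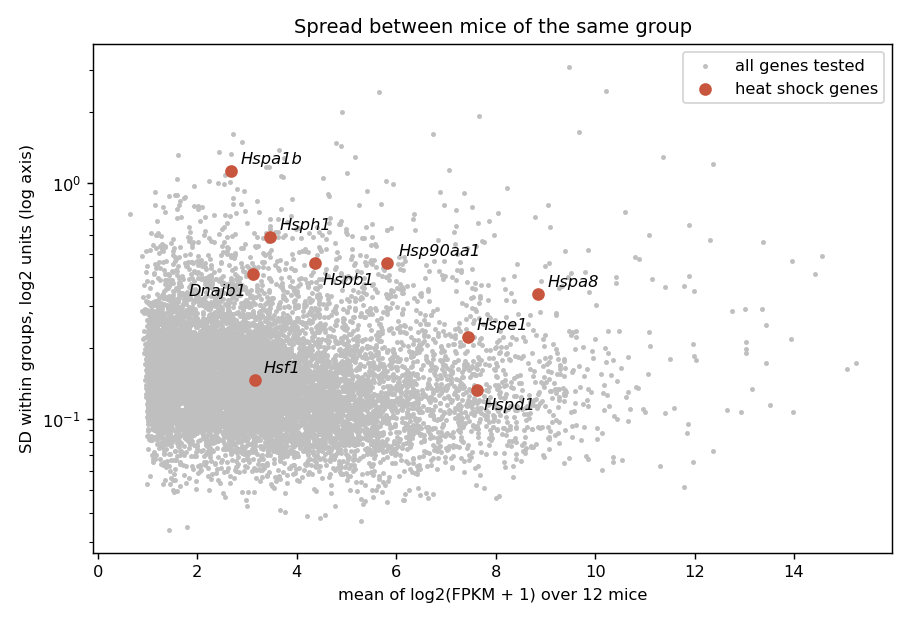
SD of log2(FPKM + 1) between mice of a group (vertical log axis) against mean log2(FPKM + 1) (horizontal axis); grey points are the genes tested and labelled points are the 9 members tested. Hspa1b is highest of the members at 1.12, and Hsf1 (0.146) and Hspd1 (0.132) lie near the median of 0.140.

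Some of the members varied together between mice. Pearson's r between log2(FPKM + 1) of each pair of members over the 12 mice was tested with 100000 permutations, and p-values were adjusted over the 45 pairs by Benjamini-Hochberg. Of the 45 pairs, 9 had an adjusted p under 0.05, all of them positive, and they fell into 2 sets with no member in common. This separation depended on which mice were included. Each pair was also taken without the 2 mice farthest from the median of its first named gene. Hsp90aa1 and Dnajb1, of different sets, had an r of 0.32 over the 12 mice and of 0.94 without Exe 1 and Exe 6 (permutation, adjusted p = 0.0108), and Hspa1a and Hspe1 had -0.10 and, without Con 2 and Exe 4, -0.80 (permutation, adjusted p = 0.0400). The points share their library and scaling, and the 12 mice hold both groups. No such count was made for pairs of other genes, so 9 of 45 cannot be called particular to the heat shock genes. With the group means removed, 8 of the 45 pairs had an adjusted p under 0.05. Within the 6 Con mice and within the 6 Exe mice, 0 pairs did by the exact permutation test. With 720 permutations and adjustment over 45 pairs, a single pair could not pass at any r, so this 0 shows nothing about the pairs within a group.

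One set joined Hspa1a, Hspa1b and Dnajb1, the inducible HSP70 genes and their HSP40 partner. For Hspa1b and Dnajb1, which share no stretch of 100 bases, r was 0.95 and Spearman's rho 0.79 (permutation, adjusted p = 0.00146 and 0.0218). This r was 0.86 without Con 2 and Exe 4 (permutation, adjusted p = 0.0375), 0.98 in Con mice and 0.93 in Exe mice. For Hspa1a and Hspa1b, which share such stretches, r was 0.94 and rho 0.83 (permutation, adjusted p = 0.00146 and 0.0184), and r was 0.68 without those mice (adjusted p = 0.1004 by permutation). For Hspa1a and Dnajb1, r was 0.85 and rho 0.62 (permutation, adjusted p = 0.00660 and 0.133), and r was 0.40 without them (adjusted p = 0.418 by permutation). Both r of Hspa1a thus missed the threshold without Con 2 and Exe 4, although its rank correlation with Hspa1b over the 12 mice passed.

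The other set joined Hsph1, Hsp90aa1, Hspb1, Hspe1 and Hspd1 in a chain. For Hsp90aa1 and Hspb1, r was 0.92 and rho 0.81 (permutation, adjusted p = 0.00146 and 0.0211), and r was 0.88 without Exe 1 and Exe 6, the mice farthest from the median (adjusted p = 0.0164 by permutation). For Hsph1 and Hsp90aa1, r was 0.88 and rho 0.91 (permutation, adjusted p = 0.00146 and 0.00720), and r was 0.85 without Con 2 and Exe 3 (adjusted p = 0.0181 by permutation). Hsph1 and Hspb1 had an r of 0.82 and a rho of 0.80 (permutation, adjusted p = 0.00784 and 0.0218), with 0.81 without the same mice. Hspb1 and Hspe1 had an r of 0.81 and a rho of 0.87 (permutation, adjusted p = 0.00804 and 0.0112), with 0.78 without Con 2 and Exe 6. For the barrel and lid genes Hspd1 and Hspe1, r was 0.83 and rho 0.84 (permutation, adjusted p = 0.00660 and 0.0171), and r was 0.81 without Exe 1 and Exe 2. The weakest of the set was Hsp90aa1 with Hspe1, at an r of 0.73 and a rho of 0.66 (permutation, adjusted p = 0.0374 and 0.102), and this r was 0.46 without Exe 1 and Exe 6, so it rested on those mice.

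Hsf1 and Hspa8 were in none of the 9 pairs. The highest r of Hsf1 was 0.51, with Hspe1 (permutation, adjusted p = 0.205), and the highest of Hspa8 was 0.68, with Dnajb1 (permutation, adjusted p = 0.0603). The rho of that pair was 0.75 (permutation, adjusted p = 0.0341), and its r was 0.58 without Exe 5 and Exe 6 (permutation, adjusted p = 0.187). Without the same mice, Hspa8 and Hsph1 had an r of 0.84 (permutation, adjusted p = 0.0181), against 0.63 over all 12 mice (permutation, adjusted p = 0.107). The level of Hsf1 mRNA says nothing of the activity of its protein, which was not measured here. Across the 2 sets, Hsp90aa1 and Dnajb1 had an r of 0.98 in Con mice (exact permutation p = 0.00833, adjusted 0.0750) and -0.14 in Exe mice (exact permutation p = 0.825, adjusted 0.898), and Hspa1b and Hsp90aa1 had 0.95 and -0.43. The difference between the groups was not tested.

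**Figure D4:**
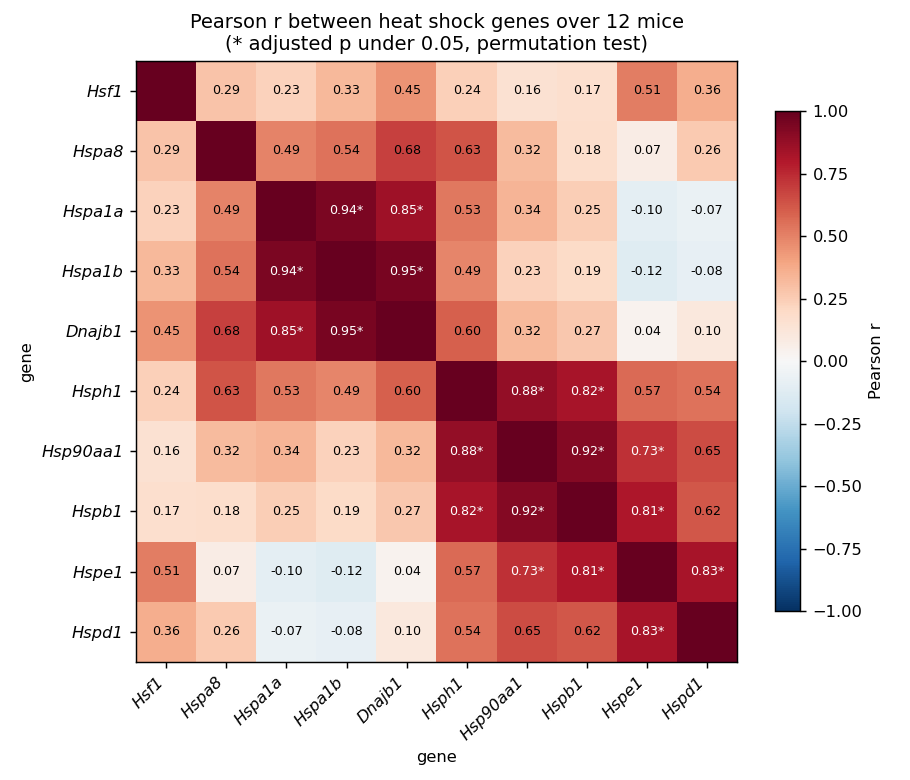
Pearson's r between log2(FPKM + 1) of each pair of heat shock genes over the 12 mice, coloured from -1 to 1, with the 9 pairs at an adjusted permutation p under 0.05 marked. The marked pairs form 1 set of Hspa1a, Hspa1b and Dnajb1 and 1 set of Hsph1, Hsp90aa1, Hspb1, Hspe1 and Hspd1, with no marked pair between them.

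By mouse, 8 of the 10 members were among the 4 highest of the 12 mice in Con 2, which held the highest value of 4 of them. Exe 4 had 7 members among the 4 highest and Exe 1 had 6. Exe 5 had 7 among the 4 lowest, and Exe 3 and Con 4 had 6. Exe 6 was split: it was highest of all mice for Hspb1 and Hspe1 and next to highest for Hsp90aa1, and lowest for Hspa1a, Hspa1b and Dnajb1. High and low mice were thus found in both groups.

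**Figure D5:**
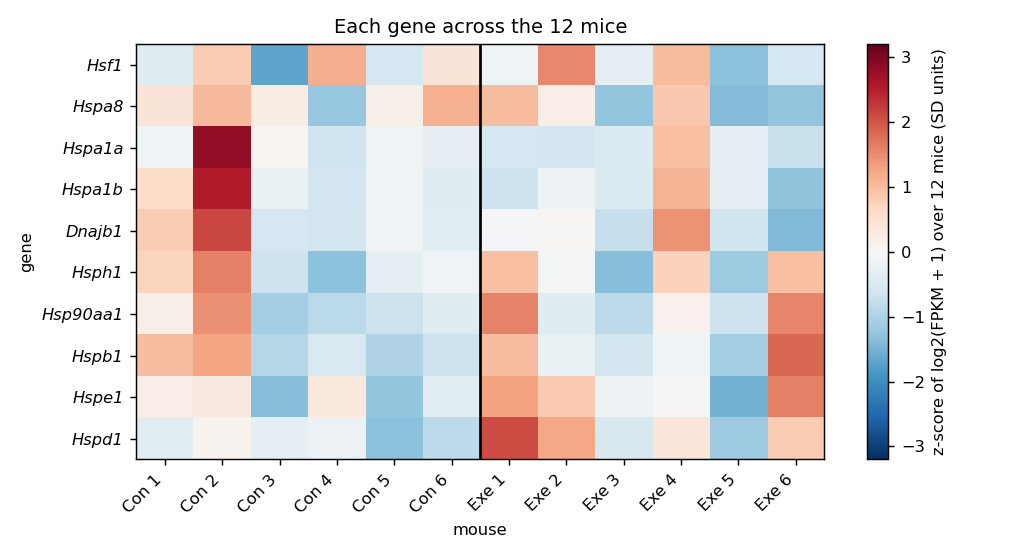
Level of each heat shock gene in each mouse, as the number of SDs from its mean over the 12 mice (log2(FPKM + 1)). Con 2 is high for nearly all cytosolic genes (2.84 for Hspa1a), and Exe 6 is high for Hspb1 (1.83) and low for Dnajb1 (-1.40). Exe 5 lies below the mean for all 10, but only slightly for Hspa1a (-0.31) and Hspa1b (-0.30).

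Markers of other cell types are given beside the mice that stood highest and lowest in the members. The summed FPKM of 9 Kupffer cell markers was highest in Con 2 (456.6) and second highest in Exe 5 (417.4), and ranged from 176.9 to 369.98 in the other mice. Summed hepatocyte markers were 62041 FPKM in Con 2 and 76509 in Exe 5, in a range of 58297 to 80767, and all 10 were found in every mouse. Summed pancreatic acinar markers were highest in Exe 5 (30.9) and lowest in Con 2 (8.51), with 7 of 9 at 0 in 6 or more mice. Summed red blood cell markers were 1290 in Exe 5, 912.0 in Exe 3 and 903.0 in Con 4, the mice with the most members among the lowest. In the mice high in the members, these markers summed to 269.5 in Con 2, 400.3 in Exe 4 and 653.0 in Exe 1. The lowest sum, 235.1, was in Con 6, which had 1 member among the 4 highest. Summed neutrophil markers were 53.2 in Exe 3 and 49.8 in Exe 5, but 12.3 in Con 4. They were 20.1 in Con 2 and at most 34.2 in the other mice, with Ly6g and Camp at 0 in 6 or more mice. Skeletal muscle markers summed to 1.63 FPKM or less in every mouse, with Acta1, Myh4, Myh1, Ckm and Actn3 at 0 in 6 or more mice. The part of these in the spread of the heat shock genes was not tested. The FPKM summed to 735200 to 820107 per mouse, the relative depth estimated from 697 low genes lay between 0.9503 and 1.02, and Spearman's rho between mice, across genes, lay between 0.981 and 0.987.

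To find genes with a like pattern, the mean level of the 8 tested chaperone members in SD units, with group means removed, was correlated with every other gene over the 12 mice. Among the 10 most alike of 10232 genes was Hsp90ab1, the constitutive partner of Hsp90aa1, with an r of 0.89 and a rho of 0.89 (0.82 without Con 2 and Exe 5), from 272.5 FPKM in Exe 5 to 432.8 in Exe 1. The others were Hyal1 (0.92), 4833439L19Rik (0.91), Zbtb6 (0.87), H2bc21 (0.86), Cyp2d12 (0.86), Zfp629 (0.86), Tra2a (0.84), Trim65 (0.84) and Paics (0.83). Most opposite were Neurl2 (-0.90), Nlk (-0.90), Ssbp3 (-0.87), Idua (-0.86) and Klhl5 (-0.86). These r are descriptions over mice that share library and scaling, with no test.

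Of the HSP90 cochaperone list, 15 of 18 genes had a positive r with the same pattern and the median was 0.51, where 46.7% of all genes were positive and the median was -0.028. Ahsa1, which speeds the ATPase of HSP90, had an r of 0.79, from 55.1 FPKM in Con 3 to 80.4 in Exe 6. Dnaja1, an HSP40, had 0.78, from 46.8 FPKM in Exe 3 to 87.3 in Con 2. Fkbp4, the HSP90 partner of steroid receptors, had 0.75, from 48.9 FPKM in Exe 5 to 119.7 in Exe 6. The small heat shock gene Hspb8 had 0.75, and Stip1, which bridges HSP70 and HSP90, had 0.72. By list, the median was -0.0078 for the 17 genes of the mitochondrial list, which are chaperones, proteases and the stress regulators Atf5 and Ddit3. It was 0.20 for the 19 genes of the endoplasmic reticulum list, -0.15 for the other 16 genes listed as cytosolic J proteins and -0.044 for the 9 BAG and nucleotide exchange genes.

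Between groups, none of the other chaperone lists held a gene with an adjusted p under 0.05 by limma. At an unadjusted p under 0.05 (background 4.27% of all genes higher and 1.94% lower), the 4 other heat shock factors and their regulators had 0 higher and 1 lower, Hsbp1l1 at -0.34 (limma adjusted p = 0.789). The 18 HSP90 genes and cochaperones had 0 higher and 1 lower (Pih1d1, -0.19, limma adjusted p = 0.793). Their median log2 fold change was 0.04 with 12 higher, where that of all genes tested was 0.02 with 57.5% higher. The 4 genes listed as other cytosolic HSP70 and HSP110 had none in either direction, with Hspa4 at 25.6 ± 1.01 and 25.4 ± 2.20 FPKM in Con and Exe mice (SD, n = 6). The 9 BAG and nucleotide exchange genes, the 4 other small heat shock genes and the 17 genes of the mitochondrial list also had none. Hspa9, the mitochondrial HSP70, had a log2 fold change of 0.13 (limma adjusted p = 0.851).

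Of the cytosolic folding machines beyond HSP70 and HSP90, the 14 genes of the TRiC chaperonin and prefoldin, which fold actin and tubulin, had 12 higher in the Exe group. Their median log2 fold change was 0.07, where that of all genes tested was 0.02 with 57.5% higher. Those with an unadjusted p under 0.05 were Cct3 (0.15) and Cct5 (0.15), with limma adjusted p of 0.799 and 0.793. The 16 genes listed as cytosolic J proteins had 1 higher, Dnajc8 (0.13, limma adjusted p = 0.799), and 0 lower. Among the 19 genes of the endoplasmic reticulum list, which are chaperones, folding enzymes and the stress regulators Xbp1 and Atf4, 16 were higher in the Exe group with a median of 0.17, and 5 were higher and 0 lower at an unadjusted p under 0.05. Calr, a calcium-binding lectin chaperone, had 423.9, 490.6 and 627.1 FPKM in the lowest, median and highest Con mouse and 515.5, 601.2 and 665.8 in Exe mice, and its log2 fold change was 0.27 (limma adjusted p = 0.793). The other 4 were Pdia4 (0.21), Dnajc3 (0.17), P4hb (0.15) and Canx (0.11), with limma adjusted p of 0.793 to 0.799. Over all 12 other lists, with the immediate early and clock genes, 17 genes had an unadjusted p under 0.05 by limma. With quantile normalization 12 did and with median-ratio size factors 13, and the count was not repeated for single lists.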

How the data were processed

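Livers of 6 Con and 6 Exe mice were profiled by paired-end RNA-seq on the DNBseq platform. Per the study's methods, reads were filtered for quality and mapped to GRCm39 with HISAT, and the authors deposited FPKM per gene. The submitters' processing notes also name Bowtie2 and mm10, and the tool behind the FPKM is not given in the sources used here. FPKM are not counts, so no count test was run and no number of reads can be given. The members and all gene lists were chosen with earlier results of these data known.

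Log2(FPKM + 1) was fitted in R 4.3.3 with limma 3.58.1 (lmFit, eBayes with a trend, group as the only term) for genes with 1 FPKM or more in 6 or more mice, with Benjamini-Hochberg adjustment over all 10241 genes. A pseudocount of 1 understates the change of low genes. The fit and the depth estimate were tested on simulated data. Exact two-sided permutation tests used all 924 splits of the mice (smallest p 0.00216), and correlations 100000 permutations. Other steps ran in Python 3.11.15 (scipy 1.17.1, numpy 2.4.6, matplotlib 3.10.9, pandas 2.3.3). Genes named outside the members were those of each list with an unadjusted p under 0.05 or, where a list had none, its 2 highest, and the 10 most and 5 least alike to the members' pattern. Ahsa1, Dnaja1, Fkbp4, Hspb8, Stip1 and Egr1 were chosen after their values were seen. Alternatives were other normalizations, filters, pseudocount and variance moderation, a replicate block, and each mouse left out. Promoters are RefSeq windows of GRCm38.p6, and shared stretches come from GENCODE M21. The labels name no batch.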

Additional observations from a re-analysis of the deposited data

Results flagged for a closer look

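Dixon's test for a single outlying mouse was run on the 10 members in each group of 6 mice (at its critical ratio for 95%), and 4 of 20 sets passed, where chance flags about 1 in 20. All 4 were in the inducible HSP70 genes. Hspa1a was 6.80 FPKM in Con 2 (ratio 0.917) and 1.85 FPKM in Exe 4 (ratio 0.833). Hspa1b was 45.5 FPKM in Con 2 (ratio 0.856) and 14.1 FPKM in Exe 4 (ratio 0.741). The copies share long stretches of sequence, so these cannot be taken as 4 independent observations. On the log2(FPKM + 1) scale, 2 of the 20 sets passed, those of Hspa1a. Dnajb1, which shares no stretch of 100 bases with them, was also highest in the same mice, at 14.9 FPKM in Con 2 (ratio 0.578) and 12.1 FPKM in Exe 4 (ratio 0.596), below the critical ratio.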

How the results depend on the processing

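Values recomputed were called the same if a fold change kept both its sign and its call, or if a count stayed within 1.5 times. With 1 mouse left out, 148 were the same, 11 changed sign, 7 counts moved by over 1.5 times and 2 passed an unadjusted p of 0.05. Under the other settings 125 were the same, 3 changed sign and 3 counts moved. With the FPKM divided by median-ratio size factors, the log2 fold change of Hsf1 was -0.0026 and that of Hsph1 -0.00039, and with quantile normalization that of Hsph1 was -0.0010. With each mouse left out, it ranged from -0.036 to 0.048 for Hsf1, from -0.13 to 0.19 for Hsph1, from -0.034 to 0.24 for Hspb1, from -0.98 to -0.16 for Hspa1b, from -0.32 to -0.028 for Dnajb1, from -0.31 to -0.13 for Hspa8, from 0.087 to 0.36 for Hsp90aa1, from 0.091 to 0.19 for Hspd1 and from 0.10 to 0.25 for Hspe1. The count of members at an unadjusted p under 0.05 ranged from 0 to 2 (2 without Exe 5), that of all genes from 418 (without Exe 2) to 905 (without Exe 5), and that of the 12 other lists from 8 (without Con 6) to 23, against 17 with all mice. With no filter, 1 gene had an adjusted p under 0.05 by limma. Pairs of members at an adjusted p under 0.05 were 9 with all mice and 0 within Con and 0 within Exe mice. There, 6 mice give 720 permutations, too few for a single pair to pass at any r. The cause of these shifts was not tested, and neither was the part of the smaller number of mice.

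Without Con 2 and Exe 4, a setting added after the data were seen, 0 members and 637 of all genes had an unadjusted p under 0.05, and 8 pairs passed, 7 of them positive. The share of genes higher in Exe mice at an unadjusted p under 0.05 was 68.7%, and 56.8% with quantile normalization and 56.4% with size factors. With the replicate number as a block, 0 members and 567 of all genes had an unadjusted p under 0.05. The numbers share no animal, and the correlation of same-numbered mice ran from -0.48 to 0.16, with 1 of 6 matching its own number best. The stricter filter of 5 FPKM removed Hspa1b. Depth in reads is unknown, so counting error cannot be given for the low values of Hspa1a.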

Other observations

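Genes of other fast responses were also read in the same livers. Of 17 immediate early genes tested, which are switched on within a short time of a stimulus, 14 were lower in Exe mice, where 57.5% of all genes tested were higher. At an unadjusted p under 0.05 by limma 0 were higher and 6 lower (background 4.27% and 1.94%), with 0 at an adjusted p under 0.05. Dusp1, a phosphatase that ends MAP kinase signals, had 7.56 to 22.7 FPKM in Con mice and 3.67 to 16.8 in Exe mice (log2 fold change -0.93, limma adjusted p = 0.793). The others were Nr4a1 (-0.78), Junb (-0.63), Zfp36 (-0.42), Btg2 (-0.41) and Fos (-0.33), with limma adjusted p of 0.793 to 0.799. Against the pattern of the chaperone members over mice, the median r of the immediate early genes was -0.29, and Egr1 had -0.77, from 1.41 FPKM in Exe 4 to 39.9 in Exe 3. The cold-inducible RNA-binding genes Cirbp and Rbm3, which are known to rise as temperature falls, had an r of -0.72 and -0.54 with that pattern. Cirbp ranged from 15.8 FPKM in Exe 4 to 26.2 in Exe 3, and Rbm3 from 28.2 in Exe 1 to 59.8 in Exe 5. Between groups, the log2 fold change was 0.08 for Cirbp and 0.12 for Rbm3 (limma adjusted p = 0.958 and 0.947). Of the 16 clock genes, 0 were higher and 1 lower at an unadjusted p under 0.05, Bhlhe41 at -0.40 (limma adjusted p = 0.793). These correlations are descriptions over 12 mice, with no test.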
